A study of Mus musculus with 6 samples.

Results

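The 6 genes described here encode proteins that granulocyte precursors make around the promyelocyte stage. Mpo, Elane, Prtn3 and Ctsg encode the main cargo of the primary (azurophil) granules, and Plac8 and Fcgr3 are expressed in the same early myeloid cells. They were chosen by symbol, with earlier results of these data known, and all 6 were found among the 55487 genes of the deposited table. RNA came from bone marrow LSK cells, sorted as lineage-negative cells with Sca-1 and Kit on their surface, a fraction that contains stem cells and multipotent progenitors. The 6 libraries comprised 3 of Wild type littermates and 3 of Mc5r-/- mice (Mc5r-null below), which lack the melanocortin 5 receptor. The series describes both genotypes as irradiated, and a dose, a time, an age and the number of mice per library are not given in the sources used here. The spread behind each SD and p-value is thus the one among these libraries, and it may be technical.

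Primary granules are the first granules that a developing neutrophil or monocyte fills. Myeloperoxidase, a haem enzyme, turns hydrogen peroxide and chloride into hypochlorous acid, and neutrophil elastase, proteinase 3 and cathepsin G are serine proteases of the chymotrypsin fold that are stored in active form. Their genes are switched on in granulocyte-monocyte progenitors under C/EBP alpha, PU.1, MYB and RUNX1, reach their highest RNA level in promyelocytes and are shut down before the secondary granules form. Low levels of Mpo RNA in multipotent cells are a classical sign of myeloid priming. Fcgr3 encodes the low-affinity IgG receptor CD16, part of the CD16/32 gate that defines granulocyte-monocyte progenitors, and Plac8 encodes a small cysteine-rich protein of early myeloid cells.

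The genes lie at 5 places in the genome (GRCm38). Mpo (ENSMUSG00000009350) is at chr11:87793581-87804413 on the plus strand, and Ctsg (ENSMUSG00000040314) at chr14:56099881-56102574 on the minus strand. Prtn3 (ENSMUSG00000057729, chr10:79874476-79883174) and Elane (ENSMUSG00000020125, chr10:79886247-79888215) are neighbours on the plus strand, 3073 bases apart. Plac8 (ENSMUSG00000029322) is at chr5:100553725-100572245 and Fcgr3 (ENSMUSG00000059498) at chr1:171051174-171064935, both on the minus strand. All 6 had the same coordinates in GENCODE M21, which lists them as protein coding.

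Since the 4 granule genes were lower together in Mc5r-null cells, as described below, the sequence before their starts is shown. Each line holds, 5′ to 3′ on the gene's own strand, the longest stretch within the 250 bases before the RefSeq start (GRCm38.p6) that no GENCODE M21 exon covers. For Mpo, Elane and Prtn3 this start lies inside the gene span given above. The stretches of Mpo and Elane end before the span, and that of Prtn3 lies within it. Capitals mark GAGGAA, the core bound by the ETS factor PU.1, and, in Ctsg, ACCACA, the reverse complement of the RUNX letters TGTGGT.
Mpo, chr11:87793534-87793580, plus strand: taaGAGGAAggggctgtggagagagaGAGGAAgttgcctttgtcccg
Elane, chr10:79886062-79886246, plus strand: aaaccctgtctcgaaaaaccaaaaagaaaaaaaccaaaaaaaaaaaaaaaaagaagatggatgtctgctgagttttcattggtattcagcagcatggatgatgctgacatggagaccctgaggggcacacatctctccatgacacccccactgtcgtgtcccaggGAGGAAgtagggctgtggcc
Prtn3, chr10:79879417-79879613, plus strand: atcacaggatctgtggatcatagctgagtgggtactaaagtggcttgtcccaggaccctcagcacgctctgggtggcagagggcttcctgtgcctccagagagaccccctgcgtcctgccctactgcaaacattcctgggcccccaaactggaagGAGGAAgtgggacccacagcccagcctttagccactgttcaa
Ctsg, chr14:56102575-56102824, minus strand: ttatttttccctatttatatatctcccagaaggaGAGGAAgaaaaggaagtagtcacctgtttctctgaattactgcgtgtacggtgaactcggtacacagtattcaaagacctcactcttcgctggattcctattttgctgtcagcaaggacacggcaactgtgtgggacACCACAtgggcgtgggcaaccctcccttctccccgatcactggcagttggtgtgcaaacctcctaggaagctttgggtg

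GAGGAA, searched on both strands in the whole 250 bases, was present before the first listed start of all 6 genes, where 23.1% of 27025 promoters of the same length held it. The other motifs searched were TTNCNNAA for C/EBP, AACNG for MYB and TGTGGT for RUNX, also on both strands. TTNCNNAA was present in 2 of the 6 genes, Plac8 and Fcgr3, against 36.9% of promoters. TGTGGT was present in 2, Ctsg and Plac8, against 14.2%, and AACNG in 5, against 74.1%. Plac8 and Fcgr3 have 2 RefSeq starts each, of which the one listed first was counted. With the other start in its place, Plac8 lost GAGGAA and TGTGGT and gained AACNG, so the counts were 5 of 6 for GAGGAA, 1 for TGTGGT and 6 for AACNG, with TTNCNNAA still at 2. GAGGAAGT, a longer match that contains GAGGAA and was added after the sequences were seen, was present in Mpo, Elane and Prtn3, at 224, 85 and 95 bases before their starts, against 2.44% of promoters. Some counted matches lay in annotated exons, among them those of AACNG in Mpo and Elane, and exons covered all 250 bases before the other Plac8 start. The starts of Plac8 and Fcgr3, like those of Mpo, Elane and Prtn3, lie inside the gene spans, and that of Ctsg lies at the edge of its span. These are matches of letters, and binding was not measured.

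The 4 granule genes were among the most abundant messages of the LSK libraries. Per length, as the deposited FPKM (fragment counts scaled for gene length and depth), Elane was highest, at 2684 ± 136 FPKM in the wild-type and 1606 ± 142 FPKM in the Mc5r-null libraries (SD, n = 3 each). It was ranked 6 among 21974 protein-coding genes in wild type and 8 in Mc5r-null. Mpo followed at 1692 ± 123 and 1057 ± 28.2 FPKM (ranks 9 and 19), then Ctsg at 1189 ± 21.8 and 737.5 ± 2.38 (ranks 17 and 29). Prtn3 stood at 560.6 ± 3.41 and 347.0 ± 5.56 FPKM (ranks 41 and 62), and Plac8 at 348.0 ± 7.25 and 195.7 ± 3.73 (ranks 66 and 95). Fcgr3 was far below the others, at 29.8 ± 0.369 and 16.37 ± 0.694 FPKM (ranks 1107 and 2051). The order of the 6 genes was the same in both genotypes, and within each genotype the libraries of neighbours in that order did not overlap.

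All 6 genes were lower in Mc5r-null LSK cells. The edgeR quasi-likelihood test, with p adjusted by Benjamini-Hochberg over all 15257 genes tested and a threshold of 0.05, called 2456 genes lower (16.1%) and 2567 higher (16.8%), so a single call of this kind is common here. Among the 6423 genes averaging at least 5 log2 CPM, as all 6 genes do, 25.3% were lower. A decrease of at least 1.5-fold that passed the same test was less common, at 2.64% of genes tested, and all 6 genes reached it. This share was not taken among the genes averaging at least 5 log2 CPM. The 6 genes were chosen with earlier results of these data known, so the shares are no test of them as a set. In each of them every Mc5r-null library lay below every wild-type library, which held for 24.1% of genes tested. The median log2 fold change of the 6 genes was -0.68, beside -0.005 over all genes tested. In bulk RNA, fewer cells of a type and less RNA per cell cannot be told apart.

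Mpo, the myeloperoxidase gene, had 7471, 8416 and 8560 CPM (counts scaled to the total of all gene counts) in wild-type replicates 1, 2 and 3 and 4937, 5199 and 5133 CPM in the Mc5r-null replicates. Wild-type replicate 1 was the lowest of its group, and the genotypes did not overlap. The fold change was 1.56-fold lower in Mc5r-null (log2 fold change -0.65, 95% interval -0.81 to -0.48, edgeR adjusted p = 0.00213).

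Elane, the neutrophil elastase gene, had 2609, 2789 and 2526 CPM in wild type and 1667, 1655 and 1419 CPM in Mc5r-null. Mc5r-null replicate 3 was the lowest library, and all Mc5r-null values lay below the wild-type ones. The level was 1.63-fold lower (log2 fold change -0.71, 95% interval -0.93 to -0.48, edgeR adjusted p = 0.00447).

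Prtn3, the proteinase 3 gene next to Elane, had 1653, 1654 and 1671 CPM in wild type and 1015, 1046 and 1021 CPM in Mc5r-null. The libraries of a genotype lay close together. The level was 1.58-fold lower (log2 fold change -0.66, 95% interval -0.70 to -0.62, edgeR adjusted p = 2.47e-08). The first bases of the annotated span of Prtn3, which lie before its RefSeq start, overlap that of Plppr3 on the other strand. Plppr3 had 214 ± 6.76 CPM in the wild-type and 214 ± 4.78 CPM in the Mc5r-null libraries (SD, n = 3 each).

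Ctsg, the cathepsin G gene, had 1712, 1651 and 1673 CPM in wild type and 1040, 1045 and 1039 CPM in Mc5r-null. It too was tight within each genotype, and it was 1.57-fold lower in Mc5r-null (log2 fold change -0.66, 95% interval -0.69 to -0.62, edgeR adjusted p = 2.81e-08).

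Plac8 had 836.5, 871.8 and 859.0 CPM in wild type and 470.6, 486.8 and 486.1 CPM in Mc5r-null. It was 1.74-fold lower, without overlap (log2 fold change -0.80, 95% interval -0.85 to -0.75, edgeR adjusted p = 3.76e-08).

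Fcgr3, the CD16 gene, had 114.5, 112.5 and 115.3 CPM in wild type and 64.32, 59.6 and 64.08 CPM in Mc5r-null. It was 1.78-fold lower (log2 fold change -0.83, 95% interval -0.92 to -0.74, edgeR adjusted p = 1.08e-06), the largest fold of the 6. Fcgr3 shares similar exons with Fcgr2b and Fcgr4, so how reads were divided among them is uncertain.

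**Figure D1:**
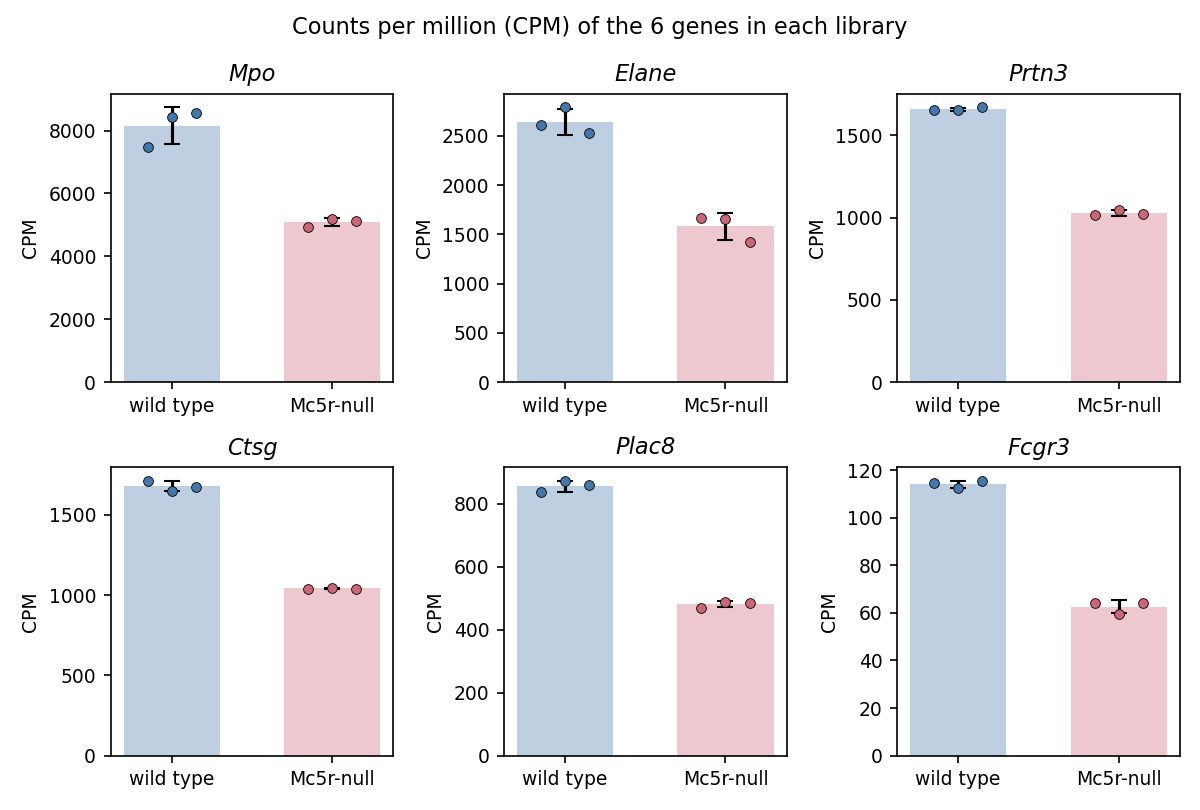
CPM of each gene (y axes start at 0) in the 3 wild-type and 3 Mc5r-null libraries; points are libraries (replicates 1 to 3 from left to right), bars the mean and error bars the SD. In every panel the Mc5r-null points lie below the wild-type points, and Mpo and Elane show the widest spread within a genotype.

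The genes differed in how closely replicates matched. Counting error alone gives a ratio of observed to expected variance near 1. The ratio in wild type and Mc5r-null was 0.918 and 3.71 for Prtn3, 8.45 and 0.152 for Ctsg, 5.56 and 2.45 for Plac8 and 0.261 and 1.58 for Fcgr3. It was 642 and 51.0 for Mpo and 102 and 173 for Elane, with coefficients of variation of 7.26% and 2.67% for Mpo and 5.08% and 8.85% for Elane. A like ratio, taken between the libraries of a pair from 1 genotype and averaged over 12068 to 12102 genes, was between 7.26 and 10.15. As a mean over genes, it does not give the value of a typical gene. At an equal coefficient of variation the ratio rises with the count, so genes of unlike level cannot be ranked by it. The lowest libraries of Mpo and Elane were not the same ones. Wild-type replicate 3 was the highest of its group for Mpo (8560 CPM) and the lowest for Elane (2526 CPM). Mc5r-null replicate 1 was the lowest of its group for Mpo (4937 CPM) and the highest for Elane (1667 CPM).

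Together the 6 genes took 1.44%, 1.549% and 1.541% of all counts in wild type and 0.9194%, 0.9491% and 0.9161% in Mc5r-null. The means were 1.51 ± 0.061% and 0.928 ± 0.0181% (SD, n = 3 each). Immunoglobulin segments took 2.14% of the wild-type and 6.91% of the Mc5r-null total, and with them left out of the total the shares of the 6 genes were 1.54 ± 0.0623% and 0.997 ± 0.0195%.

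Ratios between 2 genes in the same library do not depend on scaling between libraries. Of the summed FPKM of the 4 granule genes, Elane made up 43.8 ± 1.48% in the wild-type and 42.8 ± 2.32% in the Mc5r-null libraries, Mpo 27.6 ± 1.60% and 28.2 ± 1.37%, Ctsg 19.4 ± 0.882% and 19.7 ± 0.701%, and Prtn3 9.16 ± 0.262% and 9.27 ± 0.307% (SD, n = 3 each). The proportions among the granule genes thus differed between genotypes by less than the spread between libraries. Prtn3 and Ctsg were the most closely matched pair: the log2 ratio of their FPKM was -1.09 ± 0.030 in wild type and -1.09 ± 0.019 in Mc5r-null.

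Set against Mpo, Prtn3 or Ctsg, Plac8 and Fcgr3 had lower values in Mc5r-null. Of 15 pairs, which share genes and are not independent, the log2 ratios of these 6 did not overlap between genotypes. That is 40.0% of the pairs, below the 55.2% found over 20617831 pairs of genes averaging at least 5 log2 CPM, so the count itself is not a result about the 6 genes. The log2 ratio of Prtn3 to Plac8 was 0.715, 0.657 and 0.692 in wild type and 0.841, 0.835 and 0.803 in Mc5r-null. That of Ctsg to Fcgr3 was 5.342, 5.314 and 5.299 in wild type and 5.455, 5.571 and 5.458 in Mc5r-null. The shifts were small, at most 0.189 on the log2 scale, for Mpo to Fcgr3. Elane against Plac8 or Fcgr3 overlapped between genotypes, with differences of 0.087 and 0.121 that were under the pooled SDs of 0.113 and 0.135. No test was made of these ratios.

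**Figure D2:**
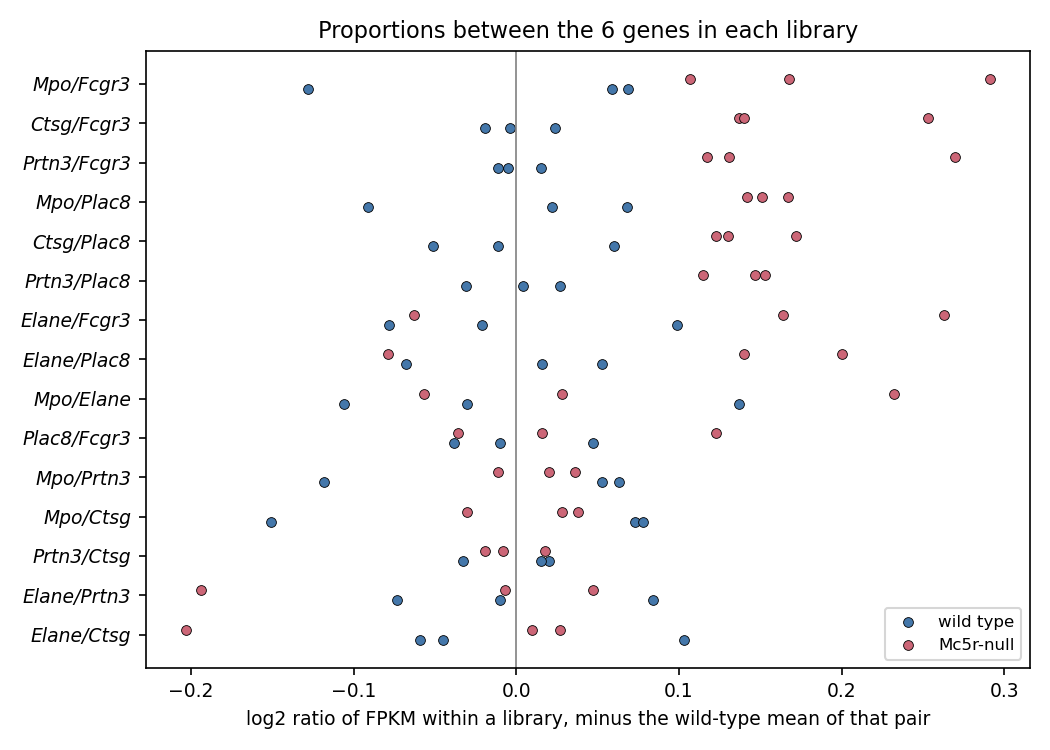
Log2 ratio of FPKM for each of the 15 pairs of genes (rows) within each library, minus the wild-type mean of that pair (x axis); points are libraries. For Mpo, Prtn3 and Ctsg over Plac8 or Fcgr3 all Mc5r-null points lie to the right of the wild-type points, by 0.138 to 0.189 on average, while the granule genes overlap among themselves.

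Most genes in the list of other primary granule contents were lower too. Of 13 genes listed, 12 were tested, of which 10 fell, none rose and 2 did not pass, with a median log2 fold change of -0.40. Over all genes tested 16.1% were lower and 16.8% higher, and 25.3% of those averaging at least 5 log2 CPM were lower. These shares are the ones to hold beside the counts of each list and marker set below. Prss57, which encodes neutrophil serine protease 4, fell 1.59-fold (151 ± 0.396 to 93.2 ± 2.26 CPM, SD, n = 3 each). Lyz2, the lysozyme gene, fell 1.39-fold (455 ± 10.6 to 320 ± 1.67 CPM), and Cst7, the gene of the cathepsin C inhibitor cystatin F, 1.41-fold (172 ± 4.13 to 119 ± 0.208 CPM). The edgeR adjusted p of these 3 was at most 4.12e-06. The largest decrease in the list was in Ms4a3, a membrane protein gene of granulocyte-monocyte progenitors that is counted here although it is not granule cargo. Its log2 fold change was -0.845 (478 ± 27.3 to 260.1 ± 4.13 CPM, edgeR adjusted p = 4.12e-06), beside -0.83 for Fcgr3, and the difference from the 6 genes was not tested. Srgn, which encodes the proteoglycan that packs granule proteases, had 850.3, 893 and 1283 CPM in wild type and 1017, 1040 and 1040 CPM in Mc5r-null, did not pass (edgeR adjusted p = 0.821), and like Ms4a3 was named after its values were seen.

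Genes that process the granule proteins moved in the same direction. Of 9 genes, 6 fell, none rose and 3 did not pass (median log2 fold change -0.30). Calr and Canx encode calreticulin and calnexin, the chaperones that fold the myeloperoxidase precursor. Calr fell 1.48-fold (2800 ± 39.3 to 1848 ± 22.5 CPM, SD, n = 3 each; edgeR adjusted p = 3.24e-08) and Canx 1.21-fold (900.0 ± 12.9 to 726 ± 8.19 CPM). Alas1, the first enzyme of haem synthesis outside red cells, fell 1.42-fold (304 ± 4.34 to 210 ± 3.50 CPM). Ctsc, whose product cathepsin C removes the activation dipeptide of the granule proteases, fell 1.23-fold (75.0 ± 4.14 to 59.7 ± 2.36 CPM, edgeR adjusted p = 0.00328).

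Genes listed as protease inhibitors went both ways, and not all of them act on the granule proteases. Of 8 genes listed, 7 were tested, with 2 higher, 1 lower and 4 that did not pass (median log2 fold change 0.13). Among the 4 were Cstb and Stfa1, of the cystatin family, and Stfa1 was near the floor (0.581 ± 0.236 CPM in wild type). Slpi, the gene of secretory leukocyte protease inhibitor, which blocks elastase and cathepsin G, had 171.1, 175.9 and 166.9 CPM in wild type and 712.7, 709.2 and 718.4 CPM in Mc5r-null. It rose 4.26-fold (edgeR adjusted p = 2.76e-10), while Elane and Ctsg fell in the same libraries. Serpina3g, a serpin gene of the antichymotrypsin cluster, rose 1.57-fold (99.07 ± 6.05 to 152 ± 1.27 CPM, SD, n = 3 each). Serpinb1a, which encodes the main intracellular inhibitor of elastase, proteinase 3 and cathepsin G, fell 1.41-fold (381 ± 7.26 to 265 ± 3.82 CPM, edgeR adjusted p = 1.40e-06).

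Other genes of granulocyte-monocyte progenitors and promyelocytes had a median log2 fold change of -0.65. Of 15, 13 fell, 1 rose and 1 did not pass. Fcnb, the ficolin B gene of promyelocytes, fell most, 2.33-fold (110 ± 2.24 to 46.1 ± 1.35 CPM, SD, n = 3 each). The inhibitory lectin receptor gene Clec12a fell 1.76-fold (313 ± 5.35 to 174 ± 1.42 CPM) and Igsf6, an immunoglobulin superfamily receptor gene, 1.76-fold (178 ± 2.96 to 98.7 ± 2.56 CPM), all 3 with an edgeR adjusted p of at most 2.36e-07. The sialic acid receptor gene Cd33, at 28.7 ± 1.61 CPM in wild type, rose 1.29-fold to 36.1 ± 0.522 CPM (edgeR adjusted p = 0.00191).

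Of 12 transcription factor genes of the granule programme, 9 fell, none rose and 3 did not pass (median log2 fold change -0.43). Cebpa, needed for the granulocyte-monocyte stage, had 174.7, 176.6 and 170.2 CPM in wild type and 125.9, 99.45 and 126.7 CPM in Mc5r-null and fell 1.45-fold (edgeR adjusted p = 0.0112). Cebpe, which drives the later, secondary granules, fell 1.70-fold (78.2 ± 3.98 to 44.9 ± 1.61 CPM, SD, n = 3 each), Cebpd 1.67-fold (63.1 ± 1.27 to 36.9 ± 1.76 CPM) and the monocyte factor gene Klf4 1.52-fold (501 ± 8.28 to 322 ± 1.95 CPM). Spi1, the PU.1 gene, named here for the motif above after its values were seen, fell 1.13-fold (225 ± 2.97 to 194 ± 3.36 CPM, edgeR adjusted p = 0.000883). Of the other factors whose motifs were searched, Myb fell 1.14-fold (657.4 ± 4.24 to 563.3 ± 8.69 CPM, edgeR adjusted p = 8.02e-05). Runx1 did not pass (137.8 ± 1.88 and 126.1 ± 15.5 CPM, edgeR adjusted p = 0.464).

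In the list of other Fc gamma receptors and the signalling chain, 5 of 6 genes were lower and 1 was higher (median log2 fold change -0.58). Of the 5, Fcgr1 was near the floor (1.41 ± 0.116 to 0.569 ± 0.245 CPM, SD, n = 3 each). Fcgr4 was low too (4.44 ± 0.600 to 2.52 ± 0.222 CPM). Fcer1g, the gamma chain that CD16 needs to reach the surface and signal, had 52.03, 45.28 and 50.99 CPM in wild type and 28.53, 32.04 and 31.75 CPM in Mc5r-null, 1.57-fold lower (edgeR adjusted p = 0.000266). Fcgr2b, the inhibitory receptor CD32 that is stained with CD16 by the same antibody, fell 1.42-fold (63.8 ± 6.27 to 43.9 ± 2.26 CPM, SD, n = 3 each). The kinase genes of the pathway changed little: Lyn fell 1.13-fold (edgeR adjusted p = 0.00387), and Syk was 1.06-fold higher (edgeR adjusted p = 0.0392), a call lost in 9 of 14 other fits, with DESeq2 among them (adjusted p = 0.323).

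The genes listed for the secondary and tertiary granules, which are filled after the primary ones, went both ways. The list also holds S100a8 and S100a9, neutrophil genes whose products are not granule cargo. Of 13, 8 fell, 3 rose and 2 did not pass (median log2 fold change -0.37). The cathelicidin gene Camp fell 1.93-fold (269 ± 4.75 to 136 ± 1.59 CPM, SD, n = 3 each), Chil3 1.72-fold and S100a8 1.41-fold (edgeR adjusted p at most 3.22e-07). Mmp9, the gelatinase gene of tertiary granules, rose 1.24-fold (77.8 ± 2.15 to 94.1 ± 0.714 CPM, edgeR adjusted p = 0.000288). The other 2 that rose were Retnlg (1.54-fold) and Mmp8 (1.38-fold).

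**Figure D3:**
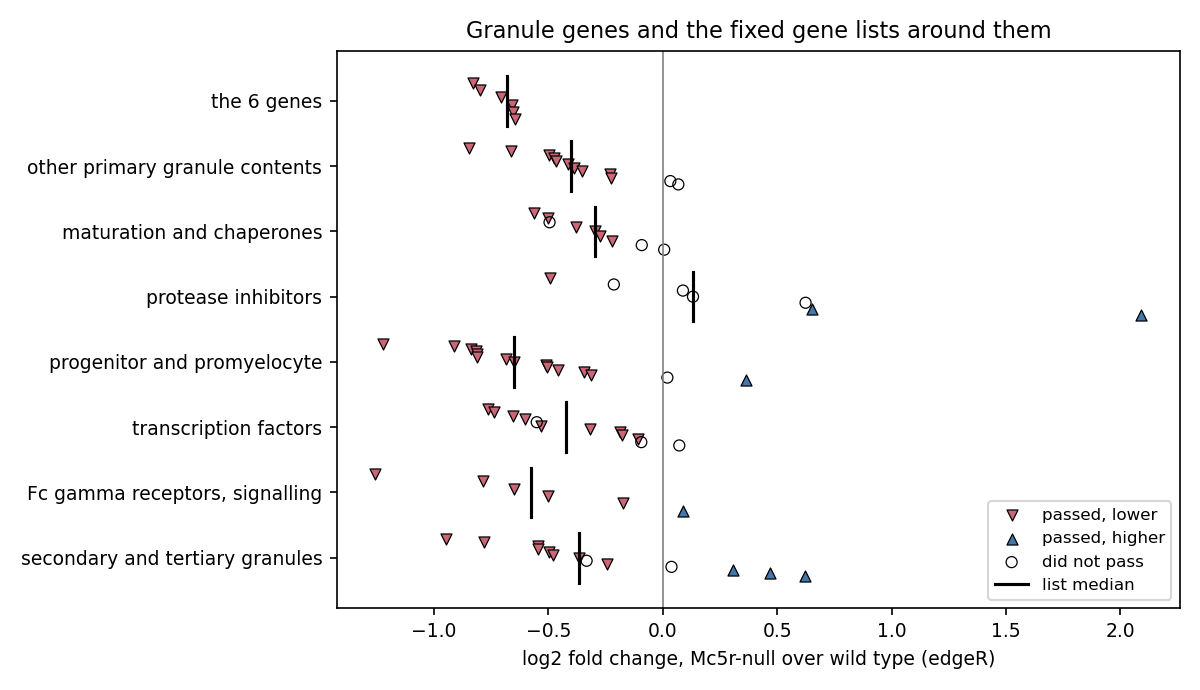
Log2 fold change of Mc5r-null over wild type (x axis, edgeR) for each tested gene of the 6 and of 7 lists around them (rows); triangles point down or up for genes that passed lower or higher at an adjusted p under 0.05, open circles did not pass, and vertical lines are list medians. The 6 genes lie between -0.83 and -0.65, and the protease inhibitors are the row with a median above 0, with Slpi at 2.09.

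Most relatives of the granule enzymes had few or no counts. Of 14 genes of related serine proteases, 4 had enough counts to be tested, and 2 of these fell, the basophil protease genes Mcpt8 (3.17-fold, 79.98 ± 2.50 to 24.6 ± 0.495 CPM, SD, n = 3 each) and Prss34 (3.01-fold). Of 4 relatives of Mpo, Epx, the eosinophil peroxidase gene, was the one tested. It had 39.46, 40.79 and 41.0 CPM in wild type and 22.2, 20.96 and 21.74 CPM in Mc5r-null and fell 1.83-fold (edgeR adjusted p = 7.28e-06).

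Near the 6 genes in the genome, lower genes stood beside genes that did not pass. Within 100 kb of any of them 30 other genes were tested, of which 11 fell, 2 rose and 17 did not pass, with a median log2 fold change of -0.11. Over all genes tested 16.1% were lower and 16.8% higher, and the difference from these shares was not tested. Around Mpo 4 of 8 fell, among them Epx and Tspoap1 (1.66-fold lower, 88.7 ± 5.18 to 52.2 ± 2.46 CPM, SD, n = 3 each). Gm11505, on the other strand within Mpo, had 6.77 ± 0.771 and 4.42 ± 0.270 CPM (SD, n = 3 each; log2 fold change -0.58, edgeR adjusted p = 0.00847), and the sources used here do not say whether counting used strand. The gene next to Ctsg was Mcpt8, 14608 bases away. Around Prtn3 and Elane, Prss57 lay within the window and fell, while Plppr3 did not pass (edgeR adjusted p = 0.423). Around Plac8 none of 3 tested genes passed, and around Fcgr3 2 of 4 did, the receptor genes Fcgr4, at 4.44 ± 0.600 and 2.52 ± 0.222 CPM, and Fcgr2b.

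**Figure D4:**
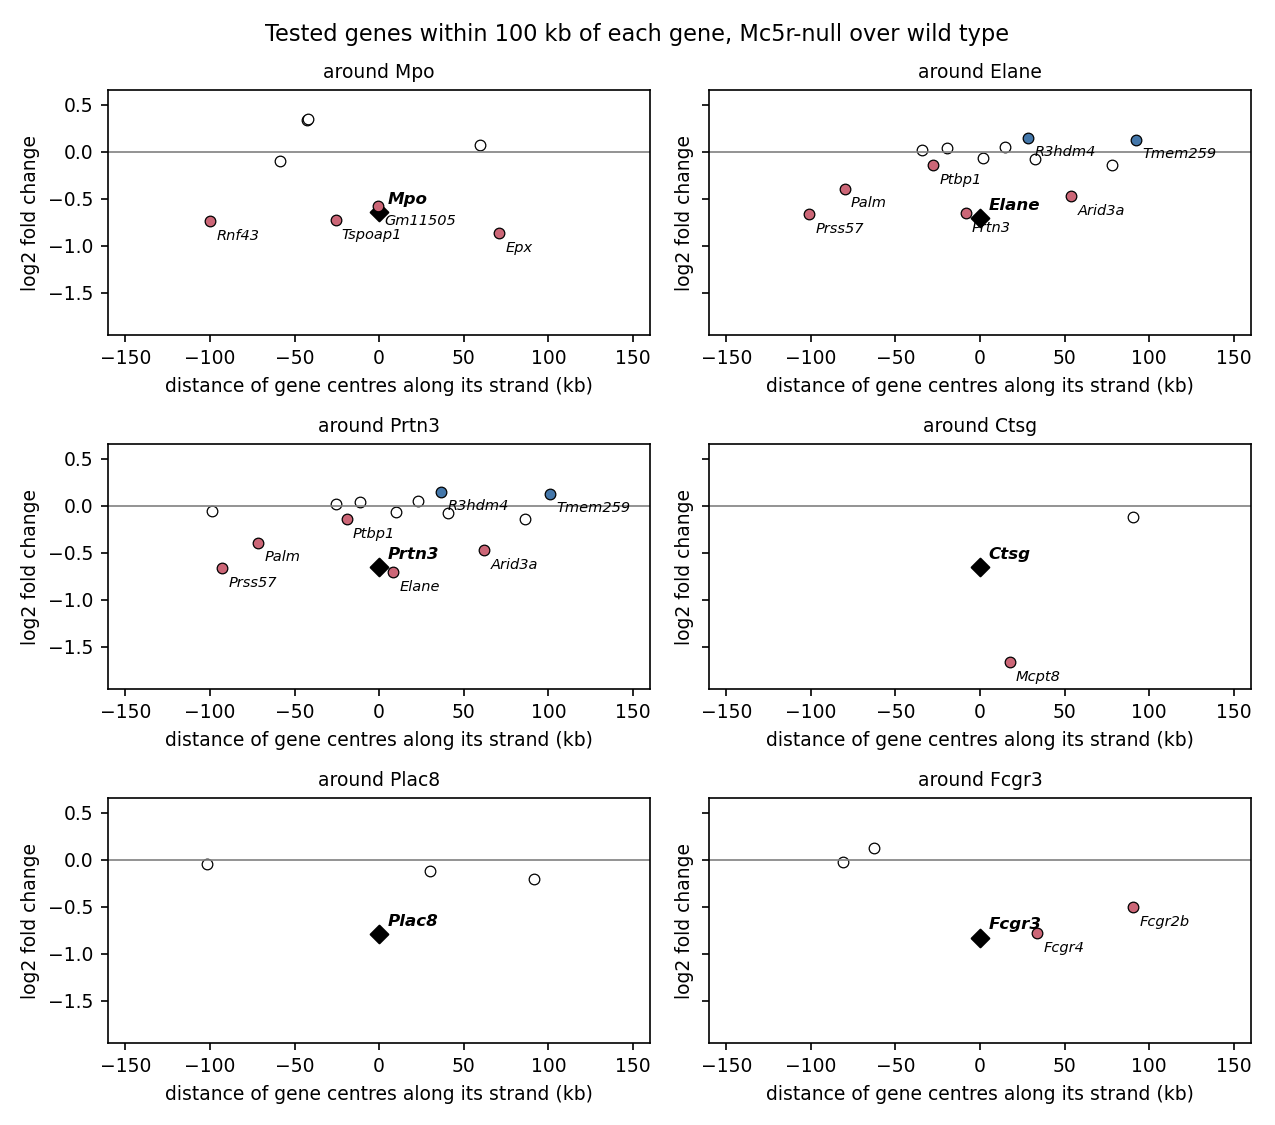
Log2 fold change (y axis, Mc5r-null over wild type) of tested genes within 100 kb of each of the 6 genes, against the distance between gene centres in kb along the strand of that gene (x axis, positive is downstream); the black diamond is the gene itself, red passed lower, blue passed higher and white did not pass. Around Plac8 the 3 neighbours lie near 0, while Mcpt8 beside Ctsg lies at -1.66.

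Over the 6 libraries, the genes whose pattern was most like the mean of the 6 were sought among 6417 genes averaging at least 5 log2 CPM, by the root mean square difference of log2 CPM centred on the wild-type mean. The nearest were the complement gene C3 (difference 0.026), the MAP kinase phosphatase gene Dusp6 (0.029), Cebpd (0.044), the chemokine gene Ccl9 (0.048) and Prss57 (0.048). The 6 genes themselves lay between 0.044 for Prtn3 and 0.094 for Fcgr3 from their own mean, and the median over the 6417 genes was 0.492. C3 went from 345 ± 3.34 to 203 ± 0.752 CPM and Dusp6 from 223 ± 3.01 to 132 ± 1.86 CPM (SD, n = 3 each).

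Depth and other cell types bear on these values. Gene counts summed to 14903723 to 14953169 in the wild-type and 13983016 to 14076870 in the Mc5r-null libraries. Of the targeted gene Mc5r the wild-type libraries held 181, 157 and 198 counts, and the Mc5r-null libraries 0, 0 and 1. Kit had 240.9 ± 2.95 and 256.2 ± 5.21 CPM, and Ly6a, the Sca-1 gene, 59.3 ± 10.6 and 66.6 ± 9.54 CPM (SD, n = 3 each; edgeR adjusted p 0.00403 for Kit, which was higher in Mc5r-null, and 0.446 for Ly6a). Of 8 stem and progenitor markers 6 were higher in Mc5r-null, with summed levels of 1312 to 1344 CPM in wild type and 1625 to 1652 in Mc5r-null. Of 8 mast cell, basophil and eosinophil markers 7 were lower (627.2 to 661.4 against 333.5 to 389.3 CPM). Of 8 monocyte and macrophage markers 6 were lower and 2 higher (292.9 to 297.7 against 152.2 to 164.2 CPM), and of 8 mature neutrophil markers 5 were lower and 2 higher (3571 to 3815 against 2613 to 2679 CPM). The 5 lower neutrophil markers were Camp, Ltf, Ngp, S100a8 and S100a9, which hold most of that sum. Retnlg and Mmp8 were the 2 higher, and Cxcr2 did not pass (edgeR adjusted p = 0.792). All 8 plasma cell markers were higher (1959 to 2007 against 2993 to 5973 CPM), and 7 of 8 erythroid ones (17.45 to 20.46 against 119.2 to 121.9 CPM). Most of the plasma cell sum was Jchain, at 1760 ± 20.4 CPM in wild type (SD, n = 3). Jchain had 5603, 5495 and 2619 CPM in Mc5r-null replicates 1, 2 and 3 (edgeR adjusted p = 0.0427). Of 8 B cell markers 2 were higher and 4 lower (144.2 to 150.8 against 153.5 to 159.0 CPM), and of 8 T and NK cell markers, 6 of them tested, 3 were higher and 1 lower (301.4 to 305.6 against 254.9 to 257.0 CPM). Most of the T and NK sum was Nkg7, also in the primary granule list, which was the 1 lower (267.3 ± 1.32 to 204.6 ± 2.96 CPM, SD, n = 3 each). Lck (28.87 ± 1.73 to 41.42 ± 3.42 CPM), Cd3e and Prf1 were the 3 higher. None of the listed markers was at 0 in all libraries, several stand in the granule lists too, and their part in the lower level of the 6 genes was not tested.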

How the data were processed

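Gene expression was measured by paired-end stranded poly-A RNA sequencing. The authors deposited 1 table of whole-number counts per gene, not normalized, as its column names and values show. They also deposited FPKM values, which were proportional to count per total in 100% of 10253 genes checked (tolerance 0.001). CASAVA 1.8, HISAT2, StringTie and edgeR are named with GRCm38, without roles, per the submitters' processing notes, and the counting program and its use of strand are not given in the sources used here.

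Counts were fitted in R 4.3.3 with edgeR 4.0.16 (filterByExpr with a minimum count of 10 and total of 15, TMM scaling, robust quasi-likelihood test), with genotype as the only term. Levels are CPM of all gene counts, and fold changes are fitted ones. Genes at an adjusted p under 0.05 were called. The fit was checked on simulated counts. Alternatives were DESeq2 1.42.0, limma-voom (limma 3.58.1), other scalings, filters and thresholds, a replicate block, and leaving out each library. The 6 genes, lists and tests were chosen with earlier results of these data known. The text names the 6 genes, up to 3 genes per list with the smallest p, 1 that moved the other way where there was one, and the 5 most alike in pattern, plus Ctsc, Calr, Cebpa, Fcer1g, Fcgr2b and Serpinb1a. Ms4a3, Srgn, Spi1, Fcgr1, Fcgr4, Gm11505, Plppr3, Kit, Ly6a and Jchain were named after their values were seen. So were Myb, Runx1, Nkg7, Lck, Cd3e, Prf1, Ltf, Ngp, S100a9, Retnlg, Mmp8, Cxcr2, Cstb and Stfa1. RefSeq promoters (GRCm38.p6) matched all 6 genes, and protein sequences were not used here.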

Additional observations from a re-analysis of the deposited data

How the results depend on the processing

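All 6 genes stayed called lower in each of the 16 alternatives, with log2 fold changes between -0.71 and -0.61 for Mpo, -0.75 and -0.63 for Elane, -0.68 and -0.65 for Prtn3, -0.67 and -0.64 for Ctsg, -0.82 and -0.78 for Plac8, and -0.85 and -0.80 for Fcgr3. Their largest adjusted p was 0.0221, for Elane without wild-type replicate 1, and 0.0149 for Mpo without Mc5r-null replicate 1. Over all genes, 2456 lower and 2567 higher became 1736 lower and 1685 higher with DESeq2 (the cause was not tested), 403 lower and 1005 higher with at least 1.5-fold, and 1444 lower and 1552 higher at an adjusted p under 0.01, thresholds that are stricter by construction. Without 1 library the counts were 1986 to 2094 lower and 2080 to 2124 higher. With immunoglobulin segments left out of the total, the share of the 6 genes in Mc5r-null was 0.997% in place of 0.928%, since the total is smaller. For the pairing by replicate number, deviations of same-numbered libraries had correlations of 0.00255, -0.0408 and -0.0240 over genes. With the replicate block 2148 genes were lower and 2254 higher, and all 6 genes stayed called (Mpo -0.64, adjusted p 0.00238; Elane -0.71, adjusted p 0.00271). Of 41 other genes checked, 39 kept their call in all 14 fits at an adjusted p under 0.05; the exceptions were Syk and the Elane neighbour R3hdm4. With at least 1.5-fold, 2 of the 10 lower genes in the granule contents list remained called, Prss57 and Ms4a3. None of the 6 processing genes, 8 of the 13 progenitor genes and 4 of the 9 transcription factors remained called. Of the 5 lower genes in the Fc gamma receptor list 3 remained called, Fcer1g and the low-count genes Fcgr1 and Fcgr4. Of the 8 lower genes in the secondary and tertiary granule list, 2 remained called.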
